A study of Mus musculus with 12 samples.

Results

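Glucocorticoid-induced genes and cochaperones of the glucocorticoid receptor (GR) were examined in mouse liver, in the presence and absence of the nuclear receptor REV-ERBα. The 9 genes were taken by symbol from the count files (*Tsc22d3*, *Zbtb16*, *Klf9*, *Dusp1*, *Sgk1*, *Tat*, *Fkbp5*, *Fkbp4* and *Ptges3*), and all 9 were found among 38926 gene symbols. RNA sequencing had been performed on 12 livers, 3 for each combination of genotype and time of day. All mice were males on the mixed 129Ola/C57BL6 background, 12 weeks old per the labels, kept in 12 h of light and 12 h of darkness with free access to food. Wild-type animals were compared with *Rev-erbα*-/- animals (Rev KO in the labels), in which *Nr1d1*, the gene encoding REV-ERBα, is knocked out in the whole body. Livers were taken at ZT8 and at ZT20, where ZT (zeitgeber time) counts the hours after lights on, so that ZT8 falls in the light phase and ZT20 in the dark phase. Corticosterone, the ligand of GR in mice, was not measured in these files, and no animal received a glucocorticoid. The number of reads counted on genes was 17641809 to 26060192 per liver, and levels are given as CPM, counts scaled to one common library size after TMM normalization in edgeR. At this depth 3 counts correspond to 0.117 to 0.167 CPM, and each of the 9 genes had at least 205 counts in every liver. All 9 passed the filter on low counts that left 14488 genes to test.

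GR is held in the cytoplasm in a complex with the chaperone HSP90 and a set of cochaperones. FKBP51, the product of *Fkbp5*, lowers the affinity of the complex for hormone, FKBP52, the product of *Fkbp4*, promotes hormone binding and transport to the nucleus, and p23, the product of *Ptges3*, holds HSP90 in its closed form. After binding of hormone, GR moves to the nucleus and binds DNA at glucocorticoid response elements (GREs), which are found near *Tsc22d3*, *Fkbp5*, *Zbtb16*, *Sgk1*, *Tat* and other genes. Because GR raises *Fkbp5*, this gene is both a target of the receptor and a brake on it. In liver, glucocorticoids are best known for raising amino acid breakdown and glucose production, and their level in blood of nocturnal rodents peaks near the onset of darkness.

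The genes differ in the elements that lie next to their transcription starts, which are shown here for the 5 genes in which a searched motif other than AGGTCA was found, so that each element can be set beside the level of its gene. RefSeq promoters (GRCm38.p6) were matched by symbol for 8 of the 9 genes, with 15 promoters in all, and the 250 bases before each start were searched on both strands. *Zbtb16* had no entry. The stretches below are printed 5′ to 3′ on the strand of the gene, without the bases that belong to annotated exons. Capitals mark a match to CACGTG (E-box) in *Fkbp5*, to GAANNTTC (a pair of inverted heat shock units) in *Fkbp4*, to TGACGTCA (cAMP response element) and CACGTG in *Dusp1*, to CACGTG and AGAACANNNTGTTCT (perfect GRE palindrome) in *Sgk1*, and to TGTTCT (the single GRE unit) in *Tsc22d3*.

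Fkbp5: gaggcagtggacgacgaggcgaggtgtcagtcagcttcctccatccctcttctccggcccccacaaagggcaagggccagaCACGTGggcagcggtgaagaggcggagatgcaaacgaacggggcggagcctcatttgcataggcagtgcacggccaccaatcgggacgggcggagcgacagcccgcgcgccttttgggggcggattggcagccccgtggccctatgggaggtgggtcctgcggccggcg
Fkbp4: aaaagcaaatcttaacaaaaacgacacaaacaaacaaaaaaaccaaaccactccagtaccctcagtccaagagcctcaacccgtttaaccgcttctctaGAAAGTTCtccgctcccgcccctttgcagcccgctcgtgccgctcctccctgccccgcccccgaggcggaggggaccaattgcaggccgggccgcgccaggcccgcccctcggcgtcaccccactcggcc
Dusp1: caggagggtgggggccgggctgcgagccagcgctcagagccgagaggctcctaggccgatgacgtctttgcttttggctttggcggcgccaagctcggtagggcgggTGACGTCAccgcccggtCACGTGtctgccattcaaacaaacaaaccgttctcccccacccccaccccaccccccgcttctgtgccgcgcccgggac
Sgk1: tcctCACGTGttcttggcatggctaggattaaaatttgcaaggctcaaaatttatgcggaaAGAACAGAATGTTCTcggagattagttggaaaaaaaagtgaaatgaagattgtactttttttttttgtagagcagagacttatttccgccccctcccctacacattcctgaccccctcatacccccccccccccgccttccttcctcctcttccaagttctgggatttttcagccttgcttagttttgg
Tsc22d3: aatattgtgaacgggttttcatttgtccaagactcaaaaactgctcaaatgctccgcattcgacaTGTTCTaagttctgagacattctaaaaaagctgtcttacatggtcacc

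These stretches lie at chr17:28486150-28486399 (minus strand), chr6:128438678-128438906 (minus), chr17:26508520-26508722 (minus), chr10:21993640-21993889 (plus) and chrX:140600660-140600772 (minus). Those of *Fkbp5*, *Dusp1* and *Sgk1* lie within introns of longer annotated transcripts of the same gene. In *Fkbp4*, the heat shock pair began 151 bases before the start, and this motif was found in 6.69% of 32851 promoters. In *Dusp1*, the cAMP response element began 143 bases and the E-box 126 bases before the start, motifs held by 1.55% and 6.02% of the promoters. *Fkbp5* held an E-box 169 bases before its start. The perfect GRE palindrome was found in 3 of the 32851 promoters (0.00913%), and 1 of these was the shown promoter of *Sgk1*, 1 of 6 that RefSeq gives for this gene, where it began 189 bases before the start and overlapped a heat shock pair that began 183 bases before it. *Tsc22d3*, with 3 promoters, had a single GRE unit 185 bases before the start shown, a motif held by 16.1% of the promoters. A match describes these letters only, and GR sites further from the start were not searched.

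Per the mm10 annotation, the 9 genes are protein-coding. *Tsc22d3* lies at chrX:140539528-140600659, *Zbtb16* at chr9:48654297-48836222, *Klf9* at chr19:23141226-23168134, *Dusp1* at chr17:26505590-26562128 and *Sgk1* at chr10:21882184-21999903. *Tat* lies at chr8:109990437-109999803, *Fkbp5* at chr17:28399094-28517527, *Fkbp4* at chr6:128429735-128438677 and *Ptges3* at chr10:128058954-128077272. The counts did not use strand, and only *Dusp1* shares exon sequence with another gene, 11 bases with *Ergic1* on the opposite strand. Scaled to the length of the annotated exons, the mean level in wild-type liver at ZT8 was 538 CPM per kb for *Tat*, the highest of the 9. *Fkbp4* had 45.7, *Tsc22d3* 27.7, *Klf9* 26.2, *Dusp1* 10.9 and *Fkbp5* 9.55 CPM per kb. *Ptges3* had 8.72, *Sgk1* 5.31 and *Zbtb16* 3.00 CPM per kb.

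The samples were first checked against their labels. *Arntl* (*Bmal1*), which REV-ERBα represses, was at 0.448 to 0.796 CPM in wild-type and 22.7 to 25.7 CPM in *Rev-erbα*-/- livers at ZT8, whereas reads were still assigned to *Nr1d1* itself in the knockout livers (63.0 to 80.6 CPM against 75.3 to 129 CPM in wild-type), so that the count per symbol does not show the deletion. At ZT20, *Arntl* was at 43.0 to 45.2 CPM in wild-type and 41.1 to 45.1 CPM in *Rev-erbα*-/- livers. *Nr1d1* was at 1.86 to 2.28 and 2.09 to 3.57 CPM there. The genotypes overlapped in both genes, which therefore do not check the genotype labels of the ZT20 livers. Markers of hepatocytes were abundant in every liver (summed level of 5 markers, 52150 to 101500 CPM), and summed markers of neutrophils (4 genes) and lymphocytes (5 genes) reached at most 10.0 and 2.64 CPM. In bulk tissue, fewer cells of a type and less RNA per cell cannot be told apart. Counts of replicates differed beyond sampling noise (7.30 to 134 chi-square units per degree of freedom). Replicates 2 and 3 of the wild-type livers at ZT8 stood apart in the summed level of 11 acute-phase genes (32230 and 39160 CPM), while replicate 1 (14870 CPM) lay within the range of the other 3 groups (14150 to 18740 CPM). Alignments to more than 1 place per counted read also differed, with 1.76 in replicate 1 of wild-type at ZT8, 2.89 and 3.28 in replicates 2 and 3, 2.29 to 2.72 in *Rev-erbα*-/- livers at ZT8 and 1.24 to 1.67 at ZT20. The part of these differences in the results was not tested. Values from fits that left out replicate 1, or replicates 2 and 3 together, are given for part of the calls and list counts that they change. List counts between times in wild-type, also those of cell markers, changed in further cases that are not given. The fits with replicate 1 as the only wild-type liver at ZT8 were chosen after the data were seen. They assume that this liver varies like the livers of the other groups, and their p-values rest on that. In comparisons that use this group, they called fewer of all genes, so that a lost call alone does not show a smaller change. The labels do not state that replicates are separate animals, and p-values measure the spread between these samples.

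**Figure D1:**
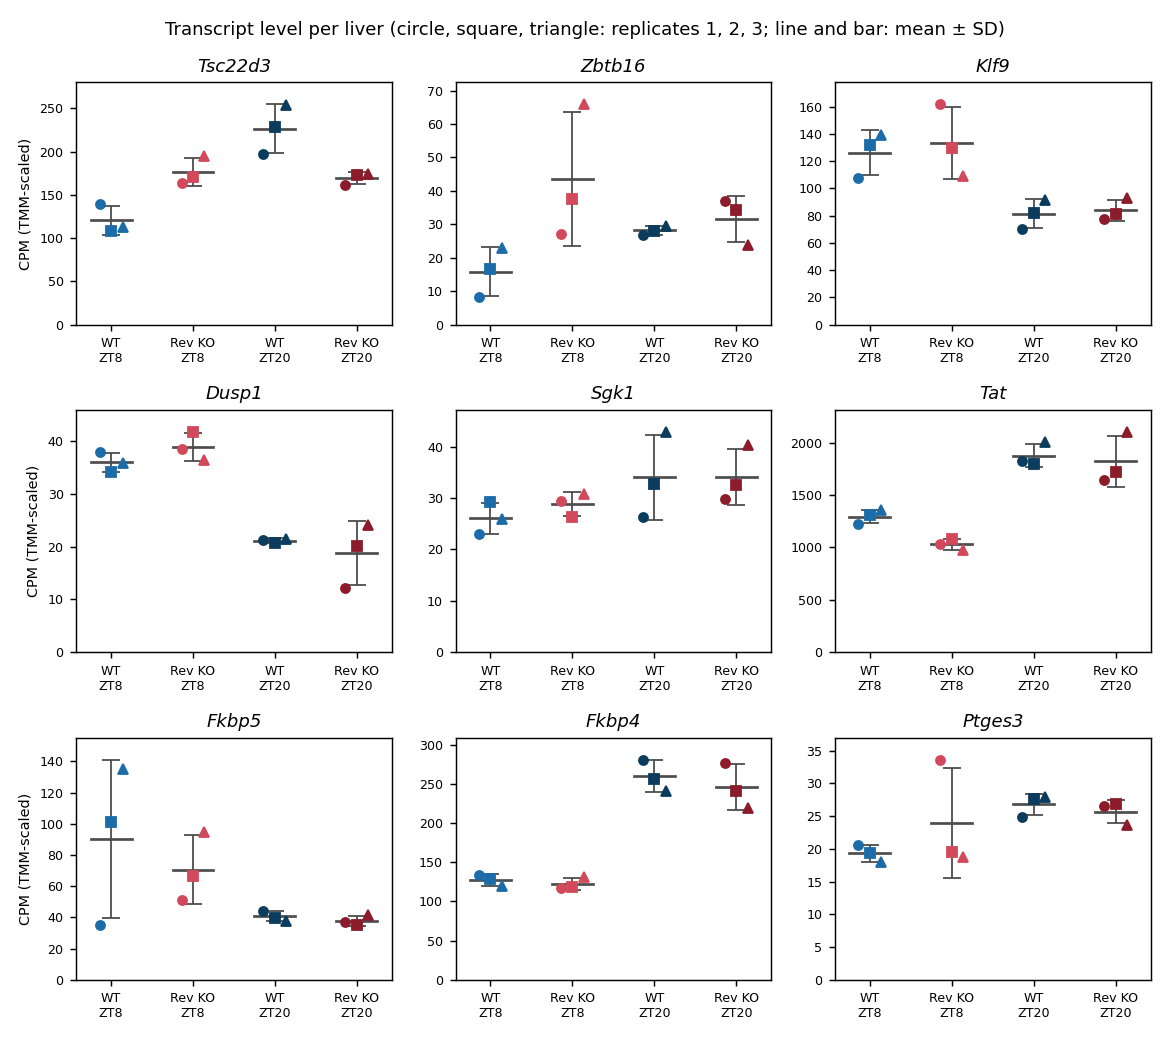
Level of each of the 9 genes in CPM (y axis, from 0) for every liver, by genotype and time point (x axis); circles, squares and triangles are replicates 1, 2 and 3, lines and bars the mean ± SD of 3 livers. *Tsc22d3* is lowest in wild-type at ZT8 and highest in wild-type at ZT20, *Fkbp4* is at 118 to 134 CPM at ZT8 and 219 to 281 CPM at ZT20 in both genotypes, and *Fkbp5* and *Zbtb16* are spread widely at ZT8.

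To see whether the loss of REV-ERBα alters these genes, genotypes were compared at each time point. *Tsc22d3*, which encodes the anti-inflammatory leucine zipper protein GILZ, was 1.46-fold higher at ZT8 and 1.34-fold lower at ZT20 when REV-ERBα was absent. At ZT8, the wild-type livers had 139, 109 and 113 CPM of *Tsc22d3* and the *Rev-erbα*-/- livers 164, 170.3 and 195 CPM (120.4 ± 16.5 and 176 ± 16.6 CPM, SD, n = 3). At ZT20, the wild-type livers had 197, 229 and 253 CPM and the *Rev-erbα*-/- livers 162, 173 and 174 CPM (226 ± 28.3 and 169 ± 6.77 CPM). The genotypes did not overlap at either time, and their order was turned round. The log2 fold change was 0.55 at ZT8 (SE 0.109, adjusted p = 0.00558, quasi-likelihood test of edgeR) and -0.42 at ZT20 (SE 0.108, adjusted p = 0.0457). The difference of the genotype effects was 0.97 (SE 0.154, adjusted p = 0.00140), and it passed the threshold of 0.05 in all 19 alternative fits, with log2 values of 0.75 to 1.08.

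The same 4 groups can be read as a change with time. In wild-type liver, *Tsc22d3* rose 1.88-fold from ZT8 to ZT20 (log2 0.91, SE 0.109, adjusted p = 2.1e-05). Without REV-ERBα, the time points overlapped (log2 -0.06, 95% confidence interval from -0.29 to 0.17, adjusted p = 0.771). Ordered by their means, the groups were wild-type at ZT8, *Rev-erbα*-/- at ZT20, *Rev-erbα*-/- at ZT8 and wild-type at ZT20, and the values of neighbours overlapped for the *Rev-erbα*-/- groups alone. The ZT8 difference missed the threshold with replicate 1 as the only wild-type liver at ZT8 (log2 0.34, adjusted p = 0.296).

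The ZT20 difference of *Tsc22d3* lay close to the threshold. It missed the threshold with the replicate number as a block (adjusted p = 0.0617), without TMM scaling (adjusted p = 0.0654) and when any of 7 livers was omitted. These were replicate 2 of wild-type at ZT8 (-0.42), replicate 2 of *Rev-erbα*-/- at ZT8 (-0.42), replicate 2 or 3 of wild-type at ZT20 (-0.41 and -0.32), and replicate 1, 2 or 3 of *Rev-erbα*-/- at ZT20 (-0.38, -0.43 and -0.44).

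*Tsc22d3* was the only one of the 9 genes called at ZT8, where it was higher, against 8.45% of the 14488 genes tested (4.4% higher and 4.04% lower). It was also the only one called at ZT20, where it was lower, against 3.63% (2.09% higher and 1.54% lower). No other member had a called difference between the genotype effects, against 5.88% of all genes (3.05% with a higher and 2.83% with a lower effect at ZT8). Averaged over both times, none of the 9 was called between genotypes in edgeR or DESeq2, with 2 below an unadjusted p of 0.05 in edgeR, against 6.34% of all genes called (3.33% higher and 3.02% lower). In DESeq2 on the 12 samples, 3 of the 9 genes passed at ZT8, *Tsc22d3*, *Zbtb16* and *Tat*, where 10.4% of all genes with an adjusted p were called, and 7.78% were called for the mean of both times. The genotypes did not overlap for these 3 genes at ZT8, and for *Tsc22d3* alone at ZT20, where 25.6% and 22.5% of all genes had no overlap.

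*Zbtb16* encodes the zinc finger protein PLZF, a transcriptional repressor with a strong response to glucocorticoids in many tissues. Its levels at ZT8 were 8.16, 16.5 and 22.8 CPM in wild-type and 26.95, 37.7 and 65.9 CPM in *Rev-erbα*-/- livers (15.8 ± 7.36 and 43.5 ± 20.1 CPM). Every *Rev-erbα*-/- liver was above every wild-type liver, with a spread of 2.80-fold within wild-type and 2.44-fold within *Rev-erbα*-/-. The log2 fold change of 1.47 (SE 0.418) did not pass the threshold in edgeR (adjusted p = 0.0688) and passed it in DESeq2 (1.46, adjusted p = 0.00636). Across the 21 alternatives, it ranged from 0.60 to 2.41 and passed in 1 of them. At ZT20, the values of 26.9, 28.1 and 29.4 CPM in wild-type and 36.9, 34.3 and 23.8 CPM in *Rev-erbα*-/- overlapped (log2 0.17, adjusted p = 0.911). The difference of the genotype effects was 1.30 (SE 0.579, adjusted p = 0.263). In wild-type, no liver at ZT8 reached the level of ZT20, but the log2 change of 0.84 did not pass (adjusted p = 0.180).

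*Tat*, tyrosine aminotransferase, is the classic liver enzyme induced by glucocorticoids. The livers at ZT8 had 1224, 1306 and 1353 CPM in wild-type and 1029, 1079 and 976 CPM in *Rev-erbα*-/- livers. The knockout livers were all below the wild-type livers, and the log2 fold change of -0.33 (SE 0.108) did not pass in edgeR (adjusted p = 0.0703). It passed in DESeq2 (-0.33, adjusted p = 0.0106) and in edgeR without replicate 1 of wild-type at ZT8 (-0.37, adjusted p = 0.0402) or without replicate 3 of *Rev-erbα*-/- at ZT20 (-0.33, adjusted p = 0.0422). With replicate 1 as the only wild-type liver at ZT8, it was -0.26 (adjusted p = 0.497). Those at ZT20 had 1820, 1801 and 2003 CPM in wild-type and 1643, 1716 and 2102 CPM in *Rev-erbα*-/- livers, which overlapped (log2 -0.04, adjusted p = 0.915). From ZT8 to ZT20, *Tat* rose 1.45-fold in wild-type (log2 0.53, SE 0.108, adjusted p = 0.00182) and 1.77-fold in *Rev-erbα*-/- liver (log2 0.82, SE 0.108, adjusted p = 0.000123). The changes with time differed by -0.29 between the genotypes, counted as wild-type minus *Rev-erbα*-/- (SE 0.152), which did not pass (adjusted p = 0.314).

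**Figure D2:**
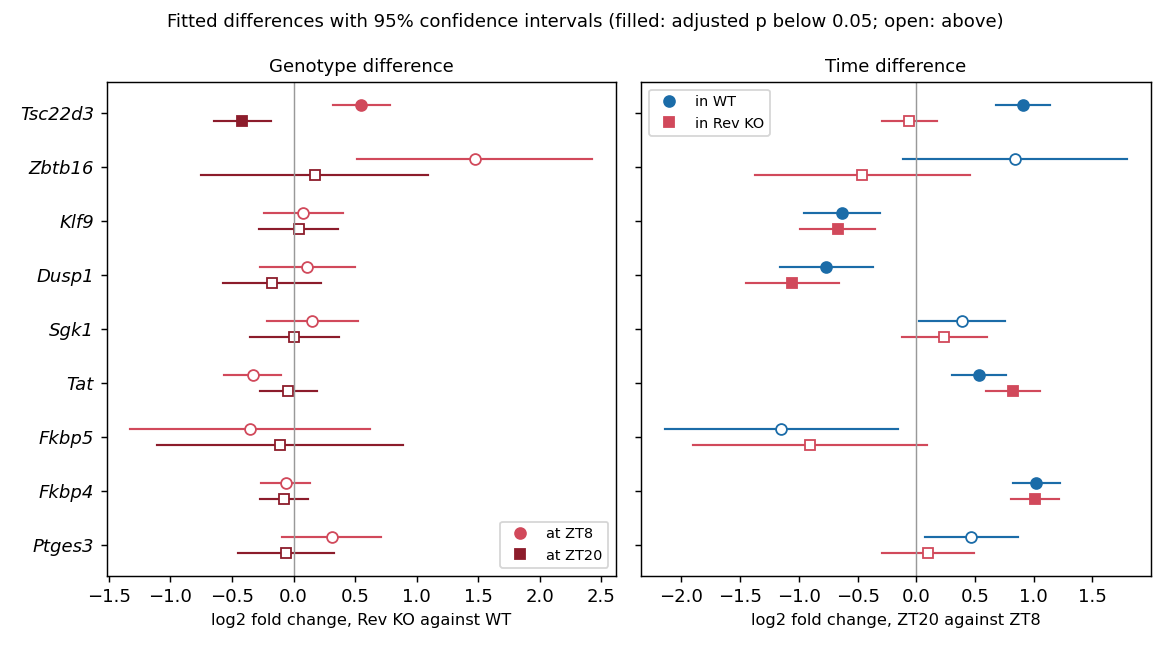
Fitted log2 fold changes (x axes) of the 9 genes between genotypes (left; circles at ZT8, squares at ZT20) and between time points (right; circles in wild-type, squares in Rev-erbα-/-), with 95% confidence intervals as lines. Filled symbols passed an adjusted p of 0.05 in edgeR, and *Tsc22d3* has the only filled symbols on the left, at 0.55 and -0.42.

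Next, the change from ZT8 to ZT20 was followed within each genotype. In wild-type liver, *Tsc22d3*, *Fkbp4* and *Tat* rose and *Dusp1* and *Klf9* fell, 5 of the 9 genes, where 27.7% of all genes tested were called (13.8% higher and 13.9% lower at ZT20). In DESeq2, 7 of the 9 passed (4 higher and 3 lower), against 24.3% of all genes. In knockout liver, *Fkbp4* and *Tat* rose and *Dusp1* and *Klf9* fell, 4 of the 9 genes, against 17.5% of all genes (8.79% higher and 8.67% lower). The time points did not overlap for 7 of the 9 genes in wild-type and for 5 in *Rev-erbα*-/-, against 42.3% and 35.0% of all genes. The median absolute log2 change of the 9 genes was 0.77 with and 0.67 without REV-ERBα, and that of all genes 0.23 and 0.20. The comparisons with ZT20 in wild-type and between genotypes at ZT8 share the wild-type livers of ZT8.

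*Fkbp4* had the largest rise with time of the 9 genes, about 2-fold in both genotypes. The wild-type livers had 134, 129 and 119.7 CPM and the *Rev-erbα*-/- livers 118, 118 and 131 CPM at ZT8. The same groups had 281, 257 and 241 CPM and 277, 241 and 219 CPM at ZT20. No liver at ZT8 came near a liver at ZT20. The log2 change was 1.02 in wild-type (SE 0.0942, adjusted p = 1.5e-06, 2.03-fold) and 1.01 in *Rev-erbα*-/- (SE 0.0943, adjusted p = 6.3e-06, 2.01-fold), and both passed in all 21 alternatives. The difference of the genotype effects was 0.01, with a 95% confidence interval from -0.27 to 0.29. Between genotypes, the log2 difference was -0.06 at ZT8 and -0.08 at ZT20 (adjusted p = 0.736 and 0.797).

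*Fkbp5* went the other way, but with a large spread at ZT8. It was at 35.1, 101 and 135 CPM in wild-type and at 50.9, 66.3 and 94.5 CPM in *Rev-erbα*-/- livers at ZT8 (90.4 ± 50.8 and 70.6 ± 22.1 CPM). The ZT20 level was 44.2, 39.9 and 37.9 CPM in wild-type and 36.8, 35.0 and 41.4 CPM in *Rev-erbα*-/- livers. The coefficient of variation was 56.2% and 31.3% at ZT8, and 7.96% and 8.70% at ZT20. Among the knockout livers, every value at ZT8 was above every value at ZT20, whereas in wild-type replicate 1 of ZT8 lay below the ZT20 livers. The log2 change with time was -1.15 in wild-type (SE 0.434, adjusted p = 0.0852) and -0.90 in *Rev-erbα*-/- (SE 0.434, adjusted p = 0.203), and the genotypes differed by -0.35 at ZT8 and -0.11 at ZT20 (adjusted p = 0.678 and 0.952).

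The result for *Fkbp5* in wild-type turned on replicate 1 of ZT8. Without this liver, the change with time was -1.55 and passed (adjusted p = 0.00130). With all livers, it passed in DESeq2 (-1.15, adjusted p = 0.0320). With it as the only wild-type liver at ZT8, the value was 0.21 and the genotype difference at ZT8 was 1.00 in place of -0.35, neither of which passed (adjusted p = 0.740 and 0.180). Without replicate 3 of wild-type at ZT8, the genotype difference was 0.06. For the knockout, the change with time passed without replicate 1 of wild-type at ZT8 (-0.91, adjusted p = 0.0192), with it as the only wild-type liver at ZT8 (-0.90, adjusted p = 0.0186), in DESeq2 with shrinkage on 6 samples (-0.82, adjusted p = 1.4e-05) and in an edgeR fit of the 6 knockout livers (-0.91, adjusted p = 0.0421).

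The 2 FKBP cochaperones compete for the same place on HSP90, and their counts were therefore compared within each liver. The ratio of *Fkbp5* to *Fkbp4* counts, which needs no scaling between libraries and was not scaled to gene length, was 0.262, 0.782 and 1.13 at ZT8 with REV-ERBα and 0.433, 0.562 and 0.723 without it. By ZT20, the ratio was 0.157, 0.155 and 0.157 with REV-ERBα and 0.133, 0.145 and 0.189 without it. The ratio was lower in every liver at ZT20 than in any liver at ZT8. The mean log2 difference between the times was -1.97 with and -1.87 without REV-ERBα, each with an exact permutation p of 0.1 (two-sided), the smallest that 3 against 3 allow. The genotypes differed by -0.13 at ZT8 and -0.03 at ZT20 (exact permutation p = 0.9 and 1).

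**Figure D3:**
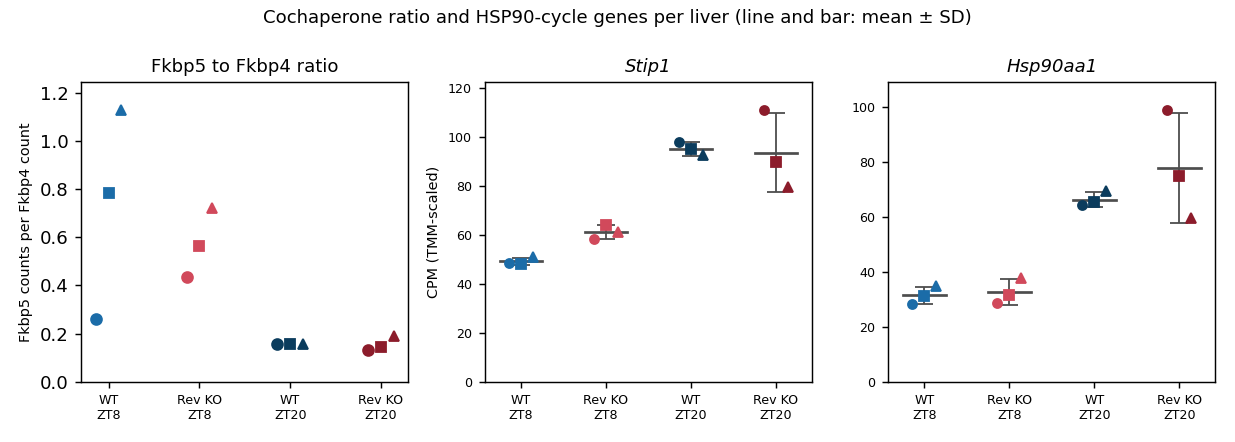
Left, *Fkbp5* counts per *Fkbp4* count in each liver by group; middle and right, levels of *Stip1* and *Hsp90aa1* in CPM with the mean ± SD of 3 livers (all y axes from 0; circles, squares and triangles are replicates 1, 2 and 3). The ratio is 0.262 to 1.13 at ZT8 and 0.133 to 0.189 at ZT20, while *Stip1* and *Hsp90aa1* are higher at ZT20 in both genotypes.

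*Ptges3* was at 20.6, 19.4 and 18.0 CPM in wild-type and at 33.7, 19.5 and 18.8 CPM in *Rev-erbα*-/- livers at ZT8. It was at 24.9, 27.6 and 27.9 CPM in wild-type and at 26.6, 26.8 and 23.7 CPM in *Rev-erbα*-/- livers at ZT20. The time points did not overlap in wild-type, and replicate 1 was the only *Rev-erbα*-/- liver at ZT8 above the range of wild-type. The log2 change with time in wild-type was 0.47 (SE 0.181, adjusted p = 0.0744, edgeR), and it passed in DESeq2 (adjusted p = 0.0412). Without replicate 1 of *Rev-erbα*-/- at ZT8, the change with time passed in wild-type (0.46, adjusted p = 0.000767) and in *Rev-erbα*-/- (0.43 in place of 0.10, adjusted p = 0.00784), and the genotype difference at ZT8 was -0.02 in place of 0.31.

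*Dusp1* encodes a phosphatase that switches off MAP kinases and is also an immediate early gene. The phosphatase transcript had 37.9, 34.2 and 35.8 CPM in wild-type and 38.5, 41.8 and 36.5 CPM in *Rev-erbα*-/- livers at ZT8. It had 21.3, 20.7 and 21.5 CPM in wild-type and 12.1, 20.1 and 24.1 CPM in *Rev-erbα*-/- livers at ZT20, and every liver of ZT20 was below every liver of ZT8. It fell by 0.77 on the log2 scale in wild-type (SE 0.180, adjusted p = 0.00835, 1.70-fold) and by 1.05 in *Rev-erbα*-/- (SE 0.181, adjusted p = 0.00243, 2.08-fold). With replicate 1 as the only wild-type liver at ZT8, the change in wild-type was -0.85 and missed the threshold (adjusted p = 0.0842). The genotypes overlapped at both times (log2 0.11 and -0.17, adjusted p = 0.756 and 0.754).

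*Klf9* encodes a zinc finger transcription factor that is induced by glucocorticoids and by thyroid hormone. At ZT8, it was at 107, 132 and 139 CPM in wild-type and at 162, 129.7 and 109 CPM in *Rev-erbα*-/- livers. At ZT20, it was at 70.4, 82.0 and 91.7 CPM in wild-type and at 77.6, 81.2 and 92.8 CPM in *Rev-erbα*-/- livers. It fell by 0.63 in wild-type (SE 0.147, adjusted p = 0.00711, 1.55-fold) and by 0.67 in *Rev-erbα*-/- (SE 0.147, adjusted p = 0.00840, 1.59-fold), and no liver at ZT20 reached the lowest liver of ZT8. With replicate 1 as the only wild-type liver at ZT8, the change in wild-type was -0.41 and missed the threshold (adjusted p = 0.234). The genotype differences were 0.08 and 0.04 (adjusted p = 0.791 and 0.940).

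*Sgk1*, a kinase that raises sodium transport, carries the perfect GRE palindrome printed above and was not called in any comparison in edgeR. At ZT8, it was at 23.0, 29.1 and 26.0 CPM in wild-type and at 29.5, 26.3 and 30.9 CPM in *Rev-erbα*-/- livers. By ZT20, it was at 26.3, 32.8 and 42.9 CPM in wild-type and at 29.7, 32.5 and 40.3 CPM in *Rev-erbα*-/- livers. Groups next to each other in the order of their means overlapped, the log2 difference between genotypes was 0.15 at ZT8 and 0.01 at ZT20, and the change with time was 0.39 in wild-type (95% confidence interval from 0.02 to 0.75, adjusted p = 0.109) and 0.24 in *Rev-erbα*-/- (adjusted p = 0.366). The change in wild-type passed without replicate 1 of wild-type at ZT20 (0.54, adjusted p = 0.0199) and with the replicate block (0.37, adjusted p = 0.0415).

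The livers at ZT8 were then compared one by one, since *Fkbp5* and *Zbtb16* differed as much within as between genotypes there. Within each genotype at ZT8, both genes were lowest in replicate 1 and highest in replicate 3. The metallothionein genes *Mt1* and *Mt2*, metal-binding proteins induced by glucocorticoids and other stimuli, which were picked here after their values were seen, had the same order. *Mt1* was at 4.10, 186 and 258 CPM in wild-type and at 11.3, 28.3 and 58.8 CPM in *Rev-erbα*-/- livers, and *Mt2* was at 1.55, 138 and 188 CPM and at 4.67, 11.8 and 32.4 CPM. At ZT20, *Mt1* was at 1.03 to 2.67 CPM in the 6 livers. *Saa1*, an acute-phase gene, was at 60.8, 4972 and 6489 CPM in wild-type at ZT8 but at 29.0, 36.4 and 37.8 CPM in *Rev-erbα*-/- livers, where *Fkbp5* and *Zbtb16* were spread as well. Among the wild-type livers at ZT8, *Tsc22d3* was highest in replicate 1, the liver in which *Fkbp5*, *Zbtb16*, *Mt1* and *Saa1* were lowest. Among the *Rev-erbα*-/- livers at ZT8, *Tsc22d3* had the same order as these genes, with 164, 170.3 and 195 CPM in replicates 1, 2 and 3. The labels do not say whether the numbers of the replicates carry an order, and with 3 livers a group no relation between genes was tested.

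**Figure D4:**
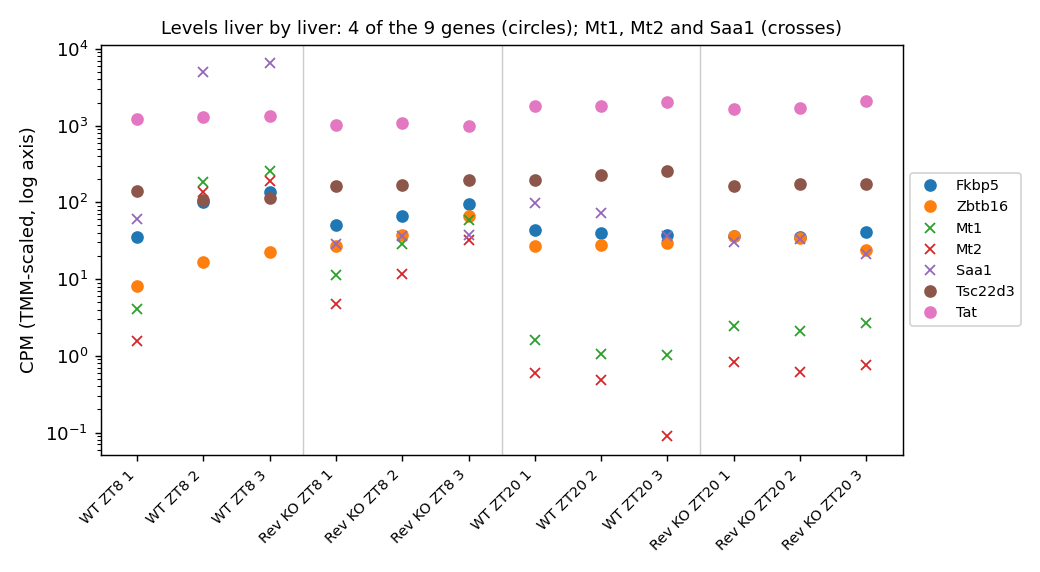
Level in CPM (log axis) of *Fkbp5*, *Zbtb16*, *Tsc22d3* and *Tat* (circles) and of *Mt1*, *Mt2* and *Saa1* (crosses) in each of the 12 livers. At ZT8, *Mt1* runs from 4.10 to 258 CPM in wild-type and from 11.3 to 58.8 CPM in Rev-erbα-/- livers, with *Fkbp5* and *Zbtb16* in the same order of livers, while *Tat* stays between 976 and 1353 CPM.

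Levels of the receptor and of the genes that supply its ligand were examined in a list of 12 genes. *Nr3c1*, which encodes GR, was at 112 to 144 CPM in the 12 livers and was not called in any comparison in edgeR (log2 -0.04 between genotypes at ZT8, adjusted p = 0.836). At ZT8, 3 of the 12 genes were lower and none higher in *Rev-erbα*-/-, where 4.04% of all genes were lower and 4.4% higher. These were *Nr3c2*, the mineralocorticoid receptor, which also binds corticosterone (29.9 ± 1.28 CPM in wild-type and 20.1 ± 2.94 CPM in *Rev-erbα*-/-, log2 -0.57, adjusted p = 0.00375), *Serpina6*, the corticosteroid-binding globulin of plasma (387 ± 75.5 and 248 ± 13.1 CPM, log2 -0.64, adjusted p = 0.0275), and *Srd5a1*, a steroid 5α-reductase (127 ± 11.6 and 101 ± 2.86 CPM, log2 -0.34, adjusted p = 0.0473). *Serpina6* was lower at ZT20 as well (239 ± 13.3 and 135 ± 31.7 CPM, log2 -0.82, adjusted p = 0.0131), the only gene of the list called then (1.54% of all genes were lower), whereas the genotype effect on *Nr3c2* differed between the times (-0.65, adjusted p = 0.0198). None of the 12 was called between genotypes with replicate 1 as the only wild-type liver at ZT8 (*Nr3c2* -0.51, *Serpina6* -0.32 and *Srd5a1* -0.48, adjusted p = 0.116, 0.522 and 0.0826), and the difference for *Nr3c2* was -0.60 (adjusted p = 0.133). Without replicate 1, 3 were called at ZT8, where 12.3% of all genes were, and *Srd5a1* was not among them (-0.27, adjusted p = 0.108). From ZT8 to ZT20 in wild-type, 2 genes of the list rose and 4 fell (13.8% and 13.9% of all genes), among them *Nr3c2* (log2 -0.92, adjusted p = 1.7e-05) and *Akr1d1*, a steroid 5β-reductase (0.75, adjusted p = 0.00158). With replicate 1 as the only ZT8 liver, *Nr3c2* was at -0.86 and *Akr1d1* at 0.54. Of these, only the change of *Akr1d1* missed the threshold in that fit. Without REV-ERBα, 1 rose and 1 fell, against 8.79% and 8.67% of all genes.

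In the HSP90 cycle, 16 of the 17 genes of the list could be tested, and 7 rose and none fell from ZT8 to ZT20 in wild-type liver, where 13.8% of all genes rose and 13.9% fell. Without replicate 1, 7 rose and 3 fell, where 28.5% of all genes were called. With replicate 1 as the only ZT8 liver, the median log2 change of the list was 0.16. *Stip1*, which links HSP70 to HSP90, rose from 49.2 ± 1.45 to 95.2 ± 2.76 CPM (log2 0.95, adjusted p = 4.2e-06), and *Ahsa1*, which stimulates the ATPase of HSP90, from 66.6 ± 3.52 to 93.5 ± 3.38 CPM (0.49, adjusted p = 0.000445). *Hsp90aa1*, which encodes inducible HSP90α and was picked after its values were seen, rose from 31.4 ± 3.15 to 66.3 ± 2.67 CPM in wild-type (1.08, adjusted p = 0.000504) and from 32.8 ± 4.72 to 77.8 ± 19.9 CPM in *Rev-erbα*-/- (1.25, adjusted p = 0.000407). Of the same genes, 4 rose and 3 fell in *Rev-erbα*-/- liver (8.79% and 8.67% of all genes). The median log2 change of the tested genes of the list was 0.21 with and 0.04 without REV-ERBα, where that of all genes was near 0 (-0.00021 and 0.0064). The difference between the genotypes in the change with time was called for none of the 16 in edgeR, against 5.88% of all genes. In edgeR, 5 were below an unadjusted p of 0.05, and DESeq2 called 1, against 7.71% of all genes. Between genotypes at ZT8, none of the 16 was called in edgeR (8.45% of all genes), with 5 below an unadjusted p of 0.05. In DESeq2, 3 were called higher, where 10.4% of all genes were called. The median log2 difference of the list was 0.11, and 0.17 against replicate 1 alone. At ZT20, 1 was lower (1.54% of all genes), the phosphatase gene *Ppp5c* (log2 -0.38, adjusted p = 0.0320, edgeR).

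A further list held 22 other glucocorticoid-induced genes. At ZT8, 2 were higher and 1 was lower in *Rev-erbα*-/-, with 2 higher and 4 lower in DESeq2, counts to be read beside the 4.4% higher and 4.04% lower of all genes in edgeR and the 10.4% called in DESeq2. *Cdkn1a*, the cell cycle inhibitor p21, was at 2.48 ± 0.482 and 34.4 ± 7.34 CPM (log2 3.78, adjusted p = 5.9e-06). *Pdk4*, a kinase that shuts off pyruvate oxidation, was at 2.02 ± 0.461 and 6.96 ± 0.266 CPM (1.80, adjusted p = 0.000572), and *Nfkbia*, the inhibitor of NF-κB, was at 38.1 ± 0.880 and 26.4 ± 1.71 CPM (-0.53, adjusted p = 0.00488). When replicate 1 was the only wild-type liver at ZT8, *Cdkn1a* and *Pdk4* remained called (3.60 and 2.05, adjusted p = 0.00325 and 0.0179) and *Nfkbia* did not (-0.54, adjusted p = 0.0800). Both *Cdkn1a* and *Pdk4* had an effect that differed between ZT8 and ZT20 (4.44 and 1.57, adjusted p = 1.3e-05 and 0.00754), as *Tsc22d3* had. Unlike *Tsc22d3*, neither was called between genotypes at ZT20 in edgeR (log2 -0.66 and 0.23, adjusted p = 0.106 and 0.635). The median log2 difference of the list was -0.34 at ZT8, where that of all genes was 0.0018. This median turned with the wild-type livers, since it was 0.091 with replicate 1 alone and -0.49 without it. Without it, 2 genes were higher and 5 lower, where 12.3% of all genes were called. From ZT8 to ZT20, 3 of the 22 genes rose and 8 fell in wild-type liver, and 1 rose and 4 fell in *Rev-erbα*-/- liver, with the same shares of all genes as above. The median log2 change of the list in wild-type was -0.45, and -0.31 when replicate 1 was the only ZT8 liver. *Cdkn1a* rose 19.2-fold in wild-type and *Pdk4* 11.9-fold (adjusted p = 4.6e-07 and 2.0e-07), while in *Rev-erbα*-/- liver *Pdk4* rose 3.99-fold and *Cdkn1a* was at -0.17 (adjusted p = 2.4e-05 and 0.598).

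**Figure D5:**
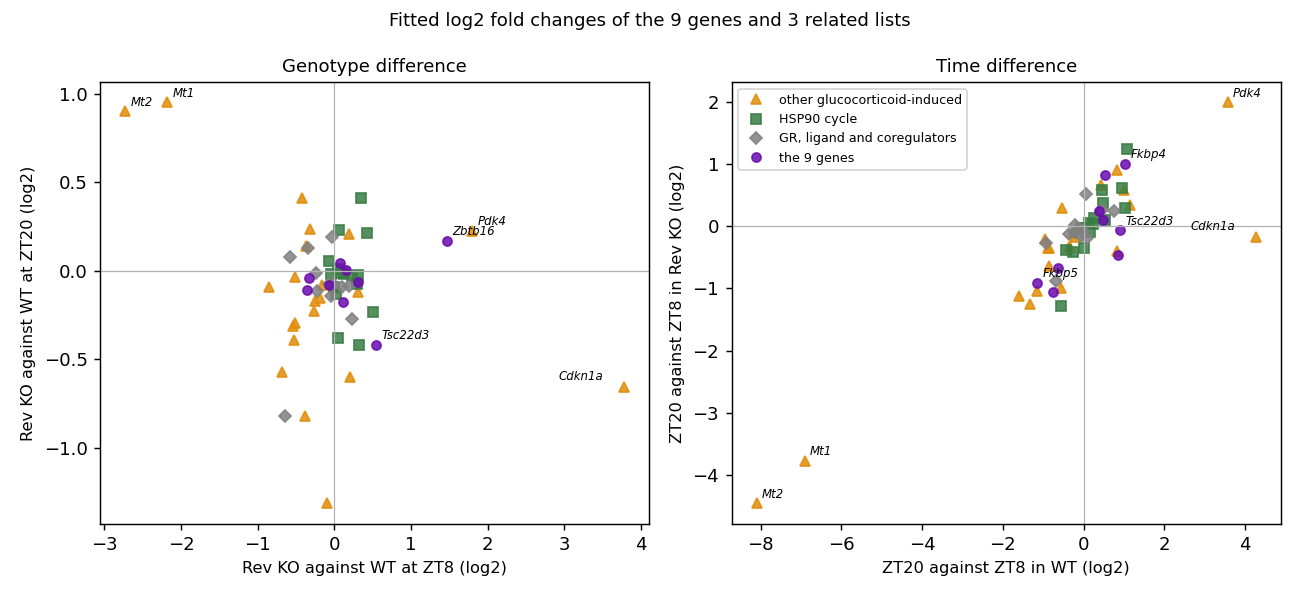
Fitted log2 fold changes of the 9 genes (circles), 22 other glucocorticoid-induced genes (triangles), the 16 tested genes of the HSP90 cycle (squares) and 12 genes of GR, its ligand and coregulators (diamonds). Left, genotype difference at ZT8 (x axis) against ZT20 (y axis), with *Tsc22d3* at 0.55 and -0.42; right, change from ZT8 to ZT20 in wild-type (x axis) against Rev-erbα-/- (y axis), with *Fkbp4* at 1.02 and 1.01.

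Immediate early genes and acute-phase genes were followed as signs of stress and inflammation. Of 10 tested immediate early genes, *Atf3* was higher (0.992 ± 0.0933 and 2.63 ± 0.559 CPM, log2 1.41, adjusted p = 0.00654) and *Junb* lower (19.1 ± 3.54 and 10.8 ± 1.14 CPM, -0.83, adjusted p = 0.00828) in *Rev-erbα*-/- at ZT8, against 4.4% of all genes higher and 4.04% lower. Against replicate 1 alone, *Junb* remained called (-1.07, adjusted p = 0.0123) and *Atf3* did not (1.51, adjusted p = 0.0933). Without replicate 1, 1 gene of the list was higher and 3 were lower, where 12.3% of all genes were called. At ZT20, 1 was lower (1.54% of all genes), and from ZT8 to ZT20 1 fell in wild-type and 3 in knockout liver (13.9% and 8.67% of all genes). Of 11 acute-phase genes, 7 were lower in *Rev-erbα*-/- at ZT8 and none was called at ZT20 in edgeR or DESeq2, where none had an unadjusted p below 0.05 (4.04% and 1.54% of all genes were lower at the 2 times). *Saa1*, *Saa2*, *Orm1* and *Orm2* were among the 7, with log2 differences of -6.80, -8.54, -1.27 and -5.14 (adjusted p = 0.0251, 0.0272, 0.0324 and 0.0300). Against replicate 1 alone, none of the 11 was called at ZT8, and these values were -0.83, -0.48, -0.21 and -0.44 (adjusted p = 0.566, 0.786, 0.480 and 0.257). In wild-type, 1 acute-phase gene was higher and 7 were lower at ZT20 (13.8% and 13.9% of all genes), and none of either with replicate 1 as the only ZT8 liver. None was called with time in *Rev-erbα*-/- by either tool, and none had an unadjusted p below 0.05 in edgeR. Summed markers of other liver cells at ZT8 were 314 to 496 CPM in wild-type and 276 to 346 CPM in *Rev-erbα*-/- for Kupffer cells (5 genes), and 276 to 290.3 and 264 to 277 CPM for endothelial cells (6 genes). They were 266 to 305 and 273 to 294 CPM for stellate cells and fibroblasts (6 genes), 37.9 to 94.7 and 53.6 to 69.8 CPM for cholangiocytes (5 genes), and 112 to 246 and 211 to 264 CPM for red blood cells (5 genes). Between the times in wild-type, the summed hepatocyte markers were at 52150 to 73200 CPM at ZT8 and at 92900 to 101500 CPM at ZT20. Of the 5, 2 were called higher (13.8% of all genes). Most of the sum was *Alb*, with means of 41469 and 73105 CPM at the 2 times. The means were 5280 and 7588 CPM for *Ttr*, 7281 and 7639 for *Apob*, 6349 and 7153 for *Apoa1*, and 730 and 795 for *Serpina1a*. In *Rev-erbα*-/-, the summed hepatocyte markers were at 60740 to 87130 and 83070 to 91800 CPM. None was called there in edgeR or DESeq2, and none was below an unadjusted p of 0.05. Kupffer cell markers in wild-type were at 270.2 to 333 CPM at ZT20, with 2 of 5 called lower (13.9% of all genes). Cholangiocyte markers went both ways, at a sum of 41.9 to 43.9 CPM at ZT20. Of these 5, 2 were called higher in edgeR (13.8% of all genes), and 2 higher and 1 lower in DESeq2 (24.3% of all genes called). *Spp1*, the most abundant of the 5, was at a mean of 59.3 CPM at ZT8 and 30.5 CPM at ZT20. The part of these markers in the results between genotypes and between times was not tested.

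Lastly, the genes whose profile over the 12 livers lay nearest to each of the 9 were sought among all genes tested, by the root mean square difference of mean-centred log2 CPM. For *Tsc22d3*, whose own root mean square deviation was 0.35, these were *Rpgrip1l* and *Gucd1* (0.11 and 0.12). *Gucd1* was at 166 ± 11.5 and 219 ± 3.38 CPM in wild-type and *Rev-erbα*-/- at ZT8, and at 293 ± 21.8 and 229 ± 4.12 CPM at ZT20. Its log2 genotype differences were 0.40 at ZT8 and -0.35 at ZT20. Since *Gucd1* was picked for its likeness to *Tsc22d3*, these follow from the choice and are no separate support. For *Fkbp4* (0.52), they were *Pxdc1* and *Hspa4l*, a heat shock protein of the HSP110 family (0.09 and 0.10). For *Fkbp5* (0.65), they were *Esm1* and *Ly75* (both 0.27 to 0.28), and for *Zbtb16* (0.69) *Slc1a4* and *Rtn4rl1* (0.35 and 0.37), more distant in these units. The nearest were *Ctnnbip1* and *Tm6sf2* for *Tat*, *Lima1* and *Fam214b* for *Klf9*, *Rapgef4* and *Wipi1* for *Dusp1*, *Adam23* and *Cc2d1a* for *Sgk1*, and *Ube2v2* and *Tmem123* for *Ptges3*, at 0.10 to 0.21. The profiles share the same 12 libraries, and likeness is given as a description.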

How the data were processed

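Gene counts of 12 liver libraries, 3 for each genotype and time point, were used as deposited by the authors. Libraries had been prepared from the poly(A) tail, sequenced to at most 75 bases on an Illumina instrument, mapped to mm10 with TopHat, and reads mapped to a single place were assigned to gene symbols by HTSeq-count (union rule), with a minimum quality of 10 and without regard to strand. The submitters' processing notes name DESeq2 1.6.3 for their own test. The release of the gene annotation is not given in the sources used here. The deposited values are raw counts, with no normalization and no pooling of replicates. Reads that fit several genes equally well are missing from them, which can lower genes with near-identical copies. *Ptges3* has an annotated processed pseudogene. The 5 summary lines of each file were kept out of library sizes and tests (alignments to more than 1 place, 1.24 to 3.28 per counted read; reads on no gene, 9.66% to 11.5% of the counted reads; ambiguous reads, 3.53% to 4.14%).

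From the counts, genes were filtered with filterByExpr (14488 left), libraries were scaled with TMM, and 4 group means were fitted over the 12 samples with edgeR 4.0.16 (glmQLFit with robust estimates, glmQLFTest) under R 4.3.3. P-values were adjusted by Benjamini and Hochberg over all genes tested, with a threshold of 0.05. The biological coefficient of variation was 0.123. The count ratio was tested with an exact two-sided permutation test. Intervals and the limit of 3 counts cover the model or counting error only. Data were simulated from these samples for the ZT8 comparison (200 genes changed, 14308 genes tested). There, edgeR recovered 87.0% of the changed genes and made 8 false calls. The raised genes in this simulation had a median log2 change of 1.57. The genes examined here had a median absolute log2 difference of 0.31 between genotypes at ZT8. The 87.0% therefore does not give the chance of calling differences of that size. Alternatives were DESeq2 1.42.0 on 12 samples or with shrinkage on 6, its size factors in edgeR, no TMM, no filter, at least 10 counts in every sample, only 6 samples, a block for the replicate number, a threshold of 0.01 and leaving out each liver. A fit with replicate 1 as the only wild-type liver at ZT8 was added after the data were seen, also for the lists, and takes the spread of that group from the others.

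The 9 genes and the lists were chosen with earlier results of these data known. Named with values were the 9 genes, from each list up to 4 genes with the smallest adjusted p between genotypes at ZT8 and up to 2 between times in wild-type, the label checks, and the 2 nearest profiles of each gene (log2 CPM with a prior count of 2). *Mt1*, *Mt2*, *Nr3c1*, *Hsp90aa1* and *Ppp5c* were added after their values were seen. Gene positions come from GENCODE M21 (mm10) and promoter sequences from RefSeq (GRCm38.p6).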

Additional observations from a re-analysis of the deposited data

Results flagged for a closer look

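*Tsc22d3* had a genotype effect at ZT8 that differed from its effect at ZT20, by 0.967 on the log2 scale (SE 0.154, adjusted p = 0.00140, edgeR). It was higher in *Rev-erbα*-/- at ZT8, in 3 of 3 livers above all wild-type livers, and lower at ZT20, in 3 of 3 livers below all wild-type livers. With replicate 1 as the only wild-type liver at ZT8, the difference was 0.75. The adjusted p of this fit, 0.0259, was the highest over the 19 alternatives (lowest 6.0e-07) and assumes that the lone liver varies like those of the other groups, so that it is no independent support. It is the only one of the 9 genes with such a difference, where 5.88% of all genes tested have one.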

How the results depend on the processing

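The 9 genes in 6 comparisons gave 54 log2 values, which were computed under 1098 alternatives in all. Of these, 1031 kept direction and side of the threshold, 12 lost and 19 gained a call, and 36 changed sign. The number of the 9 genes called between genotypes at ZT8 was 1, and became 3 with DESeq2, 2 with shrinkage on 6 samples and 0 with replicate 1 as the only wild-type liver at ZT8 (1 to 2 when single livers were left out). At ZT20 it was 1, and became 0 at a threshold of 0.01, without TMM or with the replicate block, and 0 to 1 when single livers were left out. In wild-type, 5 genes changed with time, 7 with DESeq2, and 3 with replicate 1 as the only ZT8 liver (5 to 6 when single livers were left out). In *Rev-erbα*-/- 4 did (4 to 5). The difference of the genotype effects kept 1 call and the mean genotype effect 0 when single livers were left out. No value that changed sign was called in the reported fit, and the cause was not tested. These were *Fkbp4* in the difference of genotype effects without TMM (-0.025), and with replicate 1 as the only wild-type liver at ZT8 *Fkbp5* (genotype at ZT8 1.00, difference of effects 1.11, time in wild-type 0.21, mean genotype effect 0.45), *Fkbp4* (difference of effects -0.068) and *Tsc22d3* (mean genotype effect -0.038). Leaving out single livers, the ranges that crossed 0 were, between genotypes at ZT8, *Fkbp5* -0.74 to 0.061, *Ptges3* -0.019 to 0.46 and *Klf9* -0.085 to 0.21. At ZT20, they were *Dusp1* -0.39 to 0.061, *Sgk1* -0.15 to 0.21, *Tat* -0.16 to 0.026 and *Klf9* -0.050 to 0.15. For the difference of effects, they were *Fkbp5* -0.64 to 0.17, *Fkbp4* -0.062 to 0.11, *Sgk1* -0.065 to 0.30 and *Klf9* -0.13 to 0.17. With time in *Rev-erbα*-/-, they were *Tsc22d3* -0.11 to 0.021 and *Ptges3* -0.050 to 0.43. For the mean genotype effect, they were *Ptges3* -0.038 to 0.20, *Dusp1* -0.14 to 0.088 and *Klf9* -0.018 to 0.13. The log2 *Fkbp5* to *Fkbp4* ratio ranged from -0.75 to 0.31 between genotypes at ZT8 and -0.18 to 0.078 at ZT20, and from -2.58 to -1.53 and -2.05 to -1.68 between times in wild-type and *Rev-erbα*-/-. Over all genes, 1224 were called at ZT8, and 769 in a fit on 6 samples, 346 with replicate 1 as the only wild-type liver and 542 to 1811 without single livers. At ZT20, 526 were called, and 239 to 656 without single livers. Replicates carry the numbers 1 to 3 in each group's labels. Samples with the same number did not deviate together on average (mean correlation -0.0144 over 18 pairs). With so few samples a group, this mean cannot tell whether samples of the same number were handled together. The replicate block ended the call of *Tsc22d3* at ZT20 (-0.41) and gave one for *Sgk1* in wild-type with time (0.37), and the number of genes called at ZT8 was then 1210.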
